A study of Mus musculus with 4 samples.

Results

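H3K4me3 marks active transcription starts, and most of its signal lies at promoters of protein-coding genes. The regions described here are the exceptions: 514 short H3K4me3 regions on the autosomes of mouse lung fibroblasts that had no protein-coding TSS (transcription start site) within 5 kb, out of 8016 enriched regions in all (6.41%). They were chosen on measured values, namely the pair ends of all 4 H3K4me3 HiChIP-seq libraries pooled in 1-kb bins. A bin was enriched when its ends exceeded both the chromosome's mean non-zero bin and the surrounding 100-kb mean by 4-fold or more (Poisson test, Benjamini-Hochberg q of at most 0.01), gaps of up to 1 kb were joined, and regions under 4 kb wide and over 5 kb from every coding TSS of GENCODE M21 were kept. Of the 514 regions, 145 had the TSS of a long non-coding RNA (lncRNA) within 2 kb and 369 had none, so 28.2% were at annotated lncRNA starts (Wilson 95% interval 24.5 to 32.3%). By comparison, 7411 of the 8016 regions (92.5%) had a coding TSS within 2 kb, 7322 of them under 4 kb wide, and these 7322 coding-promoter regions serve as the reference below. The remaining 91 regions were 2 to 5 kb from a coding TSS (85 regions) or too wide (6 regions).

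The study asked how nuclear miR-9 and TGFB1 affect chromatin in MLg cells, a fibroblast line from mouse lung. HiChIP joins chromatin immunoprecipitation with proximity ligation, so that each sequenced pair reports 2 fragments that lay near each other, at least 1 of them usually carrying the mark. There was 1 library per condition. The labels name the Control library wild type, the TGFB1 library was treated with 5 ng/ml TGFB1 for the last 4 h, miR-9-LOF (loss of function) cells received 60 nM of an antagomiR against miR-9-5p, and TGFB1+miR-9-LOF cells received both. Cells were harvested 24 h after transfection. By the study's methods the Control and TGFB1 cells were transfected with a control antagomiR, also at 60 nM, although their own sample labels name none. The TGFB1+miR-9-LOF library is called the combined library below, and values given for all 4 libraries in a row stand in the order Control, TGFB1, combined, miR-9-LOF. The libraries held 15359978, 10864558, 14121095 and 15568047 valid pairs. With 1 library each, a difference between libraries cannot be told apart from a difference between conditions, all intervals and p-values cover counting error only, and no value has a replicate check. The libraries also differed in the share of autosomal ends that fell in enriched regions, with 9.86%, 7.10%, 4.15% and 4.85%. Levels are compared below as scaled ends, the pair ends of a region per 1000000 autosomal ends of its library, and fewer cells with the mark and less mark per cell cannot be told apart. The cells carried promoter signal at fibroblast genes: 9 of 15 fibroblast markers, among them Col1a1, Pdgfra, Vim and Twist1, had an enriched region within 2 kb of a coding TSS, against 0 of 10 epithelial, 0 of 5 endothelial and 0 of 5 leukocyte markers.

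H3K4me3 is laid down by the SET1 and MLL methyltransferase complexes, which are drawn to unmethylated CpG-rich DNA and to RNA polymerase II at starts. The mark usually accompanies starts that the polymerase uses, including those of lncRNAs, of the long primary transcripts from which miRNAs and small nucleolar RNAs are cut, and some enhancers. It is also found at tRNA genes, which are read by RNA polymerase III. H3K4me3 regions away from coding genes can thus mark non-coding genes, unannotated or alternative starts, or strong enhancers, and proximity ligation can show which coding promoters lie near them.

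Sequence differed widely among the members. The 200 bases with the most pooled pair ends are shown for 6 members, with each CpG in capitals (GRCm38, which is mm10, plus strand). The first is inside the lncRNA gene Pvt1 beside Myc (chr15:62038069-62038268), the second is near the lncRNA 8430419K02Rik and had most of its promoter pairs with Meis1 (chr11:18875156-18875355), and the third is at the lncRNA Gm36445 and had the highest fold over background of the lncRNA-linked members (chr13:65241651-65241850). The fourth is in the member that holds Mir9-2 (chr13:83738174-83738373), the fifth is within 2 kb of a tRNA gene (chr14:51083087-51083286), and the last is a repeat-rich region whose signal did not follow the order of the libraries seen at coding promoters (chr9:35305335-35305534).
Pvt1 member: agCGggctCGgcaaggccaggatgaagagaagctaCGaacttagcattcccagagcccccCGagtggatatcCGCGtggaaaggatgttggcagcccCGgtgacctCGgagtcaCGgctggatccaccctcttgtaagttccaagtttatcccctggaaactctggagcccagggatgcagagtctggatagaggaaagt
8430419K02Rik member: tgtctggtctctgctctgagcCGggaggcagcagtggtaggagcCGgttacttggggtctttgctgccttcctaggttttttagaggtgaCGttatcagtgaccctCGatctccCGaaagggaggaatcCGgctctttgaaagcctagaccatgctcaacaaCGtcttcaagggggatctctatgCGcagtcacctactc
Gm36445 member: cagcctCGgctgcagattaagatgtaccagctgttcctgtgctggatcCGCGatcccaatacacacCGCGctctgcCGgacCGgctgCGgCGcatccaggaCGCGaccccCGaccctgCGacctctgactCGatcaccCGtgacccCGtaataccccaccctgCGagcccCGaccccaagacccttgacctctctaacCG
Mir9-2 member: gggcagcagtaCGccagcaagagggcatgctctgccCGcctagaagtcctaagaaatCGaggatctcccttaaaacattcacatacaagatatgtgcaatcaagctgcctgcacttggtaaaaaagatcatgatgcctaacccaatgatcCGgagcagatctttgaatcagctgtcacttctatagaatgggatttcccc
tRNA member: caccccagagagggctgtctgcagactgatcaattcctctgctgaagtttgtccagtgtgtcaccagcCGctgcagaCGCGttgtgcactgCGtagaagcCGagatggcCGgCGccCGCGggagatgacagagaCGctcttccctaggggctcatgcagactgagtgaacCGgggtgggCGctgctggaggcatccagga
Repeat-rich member: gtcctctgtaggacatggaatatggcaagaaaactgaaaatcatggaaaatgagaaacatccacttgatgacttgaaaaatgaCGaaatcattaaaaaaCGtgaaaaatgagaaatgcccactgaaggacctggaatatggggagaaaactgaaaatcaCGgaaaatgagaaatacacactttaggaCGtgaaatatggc

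The windows held 9 CpGs at Pvt1, 8 at 8430419K02Rik, 19 at Gm36445, 4 in the Mir9-2 member and 12 in the tRNA member. The repeat-rich window held 4 CpGs, had a GC content of 37% and was soft-masked as repeat over 100% of its length. Of the pair ends in the densest 1-kb bin, 200 bases held 93.9% in the repeat-rich member and 43.0% in the Pvt1 member. This share was over 80% in 15.8% of members and in 22.7% of coding-promoter regions, so a high share is not particular to members.

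The members were narrow. Of the 514, 445 were 1 kb wide, 55 were 2 kb and 14 were 3 kb, and 77.9% of the lncRNA-linked and 90.0% of the other members were a single bin, compared with 64.6% of coding-promoter regions. Their median fold over background, one of the values that chose them, was 6.59 with an lncRNA TSS and 4.88 without, and 7.91 at coding promoters. Near the fold limit, 42 members had a top bin under 4.1-fold (120 to 940 pooled ends) and 52 further candidates between 3.9-fold and 4-fold stayed out (116 to 466 ends). Near the distance limit, the closest member lay 5017 bp and the farthest excluded narrow region 4986 bp from a coding TSS. The median distance to a coding TSS was 37126 bp with and 33249 bp without an lncRNA TSS, and 93 members lay over 100 kb away. Regions were also called by the same rule with each library left out in turn, and then measured in the library that had no part in the call. Of those regions, 97.4 to 100% of the lncRNA-linked (126 to 156 regions) and 98.1 to 99.7% of the others (291 to 434 regions) reached 2-fold over background in the left-out library, as did 99.3 to 100% of coding-promoter regions.

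**Figure D1:**
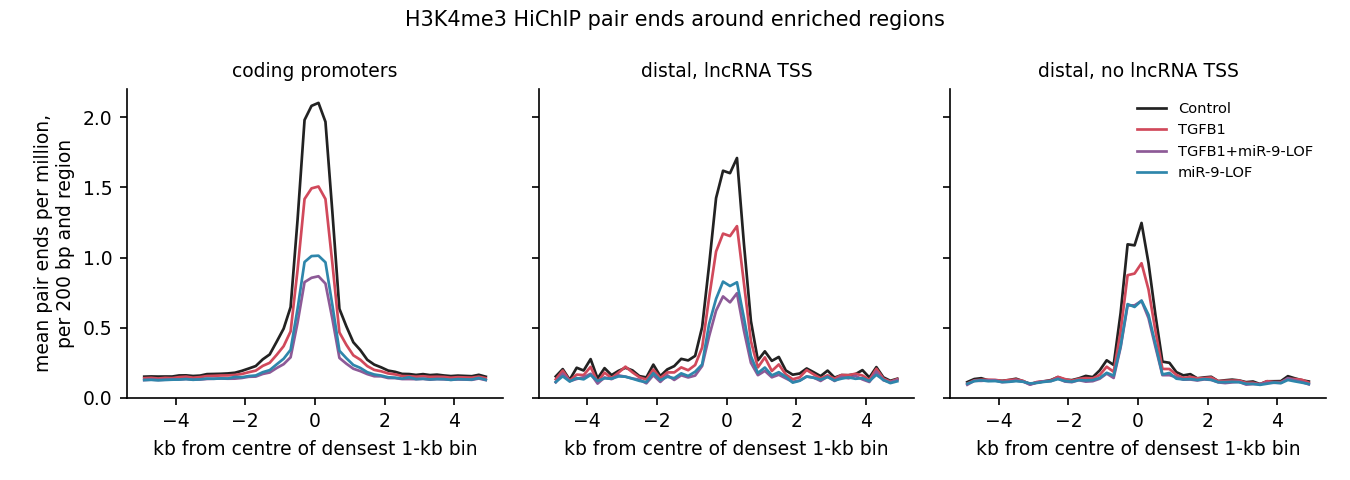
Mean scaled ends per region in 200-bp steps around the centre of the densest 1-kb bin (x axis, kb), for coding-promoter regions, members with and members without an lncRNA TSS, 1 line per library. All classes peak within about 1 kb of the centre, with the highest peak in Control and the lowest at members without an lncRNA TSS.

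GENCODE calls 75 of the 145 lncRNA-linked members lincRNA, 34 processed transcript, 17 TEC (a class of unsettled transcripts), 16 antisense, 2 sense intronic and 1 a 3-prime overlapping transcript. The other 369 were sorted by the first annotation within 2 kb that applied. A curated RefSeq mRNA started near 17 members, among them Eps8, Tnrc6b, Pde1a, Nhej1 and Msra, and a predicted RefSeq mRNA near 24. A non-coding transcript of a coding gene started near 13, a RefSeq lncRNA near 32, a tRNA gene near 27, another small RNA near 8 and a pseudogene near 18. The largest group, 230 members or 44.7% of the 514, had no annotated start within 2 kb. Position within genes followed the same division: 129 of the 145 lncRNA-linked members (89.0%) lay outside coding genes, and so did 251 of the 369 others (68.0%), while 106 of the others were intronic and 12 exonic.

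Some members lay at tRNA genes. Counting all members, 44 of 514 (8.56%, Wilson 95% interval 6.44 to 11.3%) had a tRNA gene within 2 kb, against 24 of 7322 coding-promoter regions (0.328%, 0.220 to 0.487%) and 73 of all 8016 regions (0.911%). The 27 members for which tRNA was the first annotation lay on 10 chromosomes, 8 of them on chromosome 13, and held 195 to 1805 pooled ends. Their CpG content was high, with 18 of 27 at a CpG ratio of at least 0.6 (observed over expected from the C and G content). The rule used the distance to coding TSS, and tRNA genes close to a coding TSS are counted with the coding-promoter regions.

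CpG content separated the classes in order. The median CpG ratio of the densest bin was 0.70 at coding promoters, 0.60 at lncRNA-linked members, 0.39 at the other members and 0.16 in 119795 bins taken across the autosomes. A ratio of at least 0.6 was found in 69.1% (68.0 to 70.2%) of coding-promoter regions, 50.3% (42.3 to 58.4%) of lncRNA-linked members, 24.1% (20.0 to 28.7%) of the others and 0.897% of autosomal bins. Members with no annotated start were CpG-poor, with a median of 0.33 and 34 of 230 at 0.6 or above. GC content followed, with medians of 57.7%, 54.0%, 49.8% and 41.7%. None of these sequence values entered the choice of regions, though mapped signal did.

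Short sequence matches differed too (either strand, densest 1-kb bin). The potential quadruplex pattern, 4 runs of at least 3 G with 1 to 7 bases between them, occurred in 52.6% of coding-promoter regions, 38.6% (31.1 to 46.7%) of lncRNA-linked members, 36.0% (31.3 to 41.1%) of the others, 51.5% of all enriched regions and 16.0% of autosomal bins. The ETS-type match CCGGAAG, common at housekeeping promoters, occurred in 25.3%, 22.1%, 12.2%, 24.3% and 2.87%. The NRF1-type match GCGCNTGCGC occurred in 10.4%, 4.83%, 3.25%, 9.82% and 0.259%. The AP-1 type TGANTCA occurred in 14.7% of coding-promoter regions, 24.1% (17.9 to 31.7%) and 28.7% (24.3 to 33.5%) of the members, 15.7% of all enriched regions and 26.6% of autosomal bins, so members were near the autosomal share and coding-promoter regions below it. The CTCF type CCANNAGNNGGC occurred in 6.97%, 11.03% (6.91 to 17.2%), 9.76% (7.13 to 13.2%), 7.19% and 5.28%. A match of letters is not a bound site, and these motifs can overlap.

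Among lncRNA-linked members the strongest signal was at Gm53, an lncRNA of the Hoxb cluster. This region (chr11:96251001-96252000, 19.5 kb from Hoxb9) held 937, 548, 336 and 410 ends, or 31.9, 26.4, 12.5 and 13.9 scaled ends. Trmt61b, for which GENCODE lists a non-coding antisense gene type in this set (chr17:71598001-71599000), held 797, 407, 301 and 339 ends. Both were highest in Control and lowest in the combined library, as were the medians of coding-promoter regions. The other regions among the 5 with most ends per kb were at Gm43435 (1192 pooled ends), 2810410L24Rik (1232) and Gm33838 (1333). Gm33838, the repeat-rich region printed above, broke the pattern with 343, 246, 422 and 322 ends, which is 11.7, 11.8, 15.7 and 10.9 scaled ends. Only 70.4% of its ends came from pairs in which each end had mapping quality 30 or more, and with those pairs alone its log2 ratio of miR-9-LOF over Control was -0.77 in place of -0.10. The start of Gm33838 lay 1599 bp from this region. High-signal areas of the mm10 blacklist, which the paper took out of its CUT&Tag peaks, were not taken out here.

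Well-studied lncRNAs were taken from a list of 60 names, of which GENCODE places 47 on autosomes as lncRNA genes. Of these, 21 had a member within 2 kb, in 25 regions, and 7 (Fendrr, Gas5, Gm26917, Snhg3, Snhg18, Tug1 and Zfas1) had an enriched region that was no member. The 21 comprised hosts of small nucleolar RNAs (Snhg8, Snhg12, Snhg15, Snhg17 and Snhg20), hosts of miRNAs (Dleu2, Dnm3os, Mir17hg, Mir22hg, Mir99ahg and Mir155hg), imprinted RNAs (Airn, Kcnq1ot1 and Peg13), the abundant nuclear RNAs Malat1 and Neat1, and Carmn, Dancr, Epb41l4aos, Lncpint and Pvt1. Scaled ends were highest in Control in 24 of the 25 regions, the exception being Kcnq1ot1 with 5.14, 5.43, 2.79 and 3.39. The same held for 97.1% of all 8016 regions and 93.8% of the 145 lncRNA-linked members, so the listed lncRNAs did not stand apart in this. The log2 ratio of TGFB1 over Control ranged from -0.91 at Snhg15 to 0.08 at Kcnq1ot1 (median -0.51), that of the combined library over TGFB1 from -1.22 to 0.10 at the same Snhg15 region (median -0.80), and that of miR-9-LOF over Control from -1.59 at 1 of 2 Mir99ahg regions to -0.20 at Snhg17 (median -0.90). The Snhg17 region had 63.2% of its ends at mapping quality 30.

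Several of these lncRNAs show the range in level. Pvt1 (chr15:62037001-62040000) held 894, 445, 331 and 424 ends. Mir22hg, the host of miR-22, held 784, 384, 284 and 363. Neat1, the scaffold of paraspeckles, held 293, 145, 100 and 175, and Malat1, found in nuclear speckles, 310, 134, 99 and 182. Dnm3os, which runs antisense in Dnm3 and hosts miR-199a and miR-214 in mesenchyme, held 271, 123, 99 and 137. Lncpint had 3 separate members, with 931, 744 and 785 pooled ends. Mir99ahg was weakly marked, with 145 and 166 pooled ends in its 2 regions.

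Members without an lncRNA TSS held the strongest member of all. It lay on chromosome 19 (chr19:61266001-61267000, 30.1 kb from the coding gene Gm21060) and held 2656, 1049, 1044 and 978 ends, 67.2-fold over background. Within its densest bin 98.4% of the ends fell in 200 bases, and 56.9% belonged to pairs of mapping quality 30. The next, chr6:3201001-3202000, held 834, 554, 914 and 402 ends with 99.7% in 200 bases. chr2:181917001-181918000 (311, 217, 402 and 328 ends) and chr17:36231001-36232000 (369, 299, 479 and 195 ends) had 59.1% and 59.7% of ends at mapping quality 30. A different kind of region, chr11:74638001-74639000 in an exon of Ccdc92b, held 640, 332, 277 and 295 ends, with 94.2% at mapping quality 30 and a CpG ratio of 0.72. Scaled ends were highest in Control in the chr19 and chr11 regions and in the combined library in the other 3.

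Taking all members together, signal was lower in each library with treatment than in Control, but less so than at coding promoters. Members took 0.342%, 0.262%, 0.180% and 0.190% of autosomal ends (100405, 54457, 48475 and 56252 ends), while coding-promoter regions took 9.13%, 6.55%, 3.79% and 4.46%. The log2 ratio of scaled ends for TGFB1 over Control was -0.45 at lncRNA-linked members (95% interval -0.48 to -0.43), -0.34 at the others (-0.36 to -0.32) and -0.48 at coding promoters. For the combined library over TGFB1 it was -0.73 (-0.76 to -0.70), -0.44 (-0.46 to -0.42) and -0.79. For miR-9-LOF over Control it was -0.99 (-1.01 to -0.96), -0.76 (-0.78 to -0.74) and -1.03. TGFB1 over Control and miR-9-LOF over Control share the Control library, and the combined library over TGFB1 shares the TGFB1 library with the first.

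Relative to coding-promoter regions, all members together differed by 0.10 on the log2 scale for TGFB1 over Control (95% interval 0.08 to 0.11, two-sided Fisher exact test p = 4.77e-34), 0.25 for the combined library over TGFB1 (0.23 to 0.27, p = 2.88e-158) and 0.19 when miR-9-LOF was set against Control (0.17 to 0.20, p = 6.63e-130). With a limit of 6-fold in place of 4-fold these differences were 0.03, 0.25 and 0.11. The lncRNA-linked members were close to coding promoters, with differences of 0.03 (0.0032 to 0.053, Fisher exact test p = 0.0272), 0.06 (0.03 to 0.09, p = 0.000341) and 0.04 (0.02 to 0.07, p = 0.000728). The members without an lncRNA TSS lay further off, with 0.14, 0.35 and 0.27. These tests compare the ends of 2 libraries, not 2 conditions. The tested ends are also among those that chose the members, and members that passed only through miR-9-LOF are included. The p-values are therefore no independent support for a difference between classes. Members had a lower fold over background than coding-promoter regions, and medians were therefore also taken within the same range of fold. Between 4-fold and 5-fold, the median log2 ratio of miR-9-LOF over Control was -0.62 at 193 members without an lncRNA TSS, -0.91 at 36 with one and -0.91 at 995 coding-promoter regions. At 8-fold and above it was -0.95 (60 members), -1.05 (47 members) and -1.07 (3593 regions).

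Single members were next set against the median of all 8016 regions, which was -0.48, -0.76 and -1.02 in the 3 contrasts, and a region at least 1.5-fold above or below that median was counted. Across all regions 1.26% lay above and 0.524% below for TGFB1 over Control, 3.09% and 0.487% for the combined library over TGFB1, and 3.03% and 1.1% when miR-9-LOF was set against Control. Members without an lncRNA TSS lay above more often, with 49 of 369 (13.3%, Wilson 95% interval 10.2 to 17.1%), 91 (24.7%, 20.5 to 29.3%) and 87 (23.6%, 19.5 to 28.2%). The lncRNA-linked members had 3 of 145 (2.07%, 0.706 to 5.91%), 10 (6.90%, 3.79 to 12.2%) and 8 (5.52%, 2.82 to 10.5%). Coding-promoter regions had 0.505%, 1.73% and 1.75%. At least 1.5-fold below the median lay 5 of 514 members (0.973%) in each contrast. The members were chosen on ends pooled over these same libraries, and of the 87 only 73 were still enriched without miR-9-LOF. The rest of the 87 were members only through the library in which they were high. No such check was made for the 49 and the 91, so these shares are no test of a difference between classes.

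**Figure D2:**
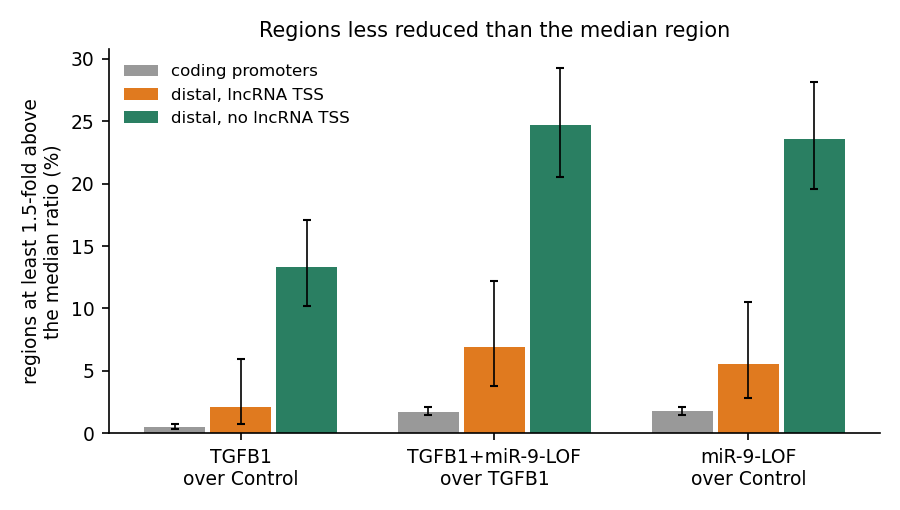
Percent of regions whose log2 ratio was at least 1.5-fold above the median of all 8016 enriched regions, by contrast and class; error bars are Wilson 95% intervals. Members without an lncRNA TSS stand above both other classes in every contrast, at 13.3%, 24.7% and 23.6%. The last share includes members that passed the rule only through miR-9-LOF, as 73 of its 87 were enriched without that library.

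The 95 members at least 1.5-fold above the median in miR-9-LOF over Control (8 lncRNA-linked and 87 others) differed from the other 419 in sequence and mapping. Their sequence was not used in the choice. They were also weaker, with a median of 269 pooled ends and 4.48-fold against 410 ends and 5.47-fold. Of the 87, 73 were still enriched when miR-9-LOF was left out of the pooled ends (a check chosen after seeing the data), as were all 282 others without an lncRNA TSS. The median CpG ratio of the 95 was 0.20 against 0.50, with 3 of 95 at 0.6 or above against 159 of 419. Their median GC content was 45.8% against 52.0%, and the median soft-masked share was 15.5% against 11.1%. Under 70% of ends at mapping quality 30 were found in 24 of the 95 (25.3%) and in 21 of the 419 (5.01%). This share comes from the same ends as the ratio that picked the 95, so it is not independent of the choice. By library, 90.4%, 90.8%, 90.8% and 86.6% of all pairs had both ends at mapping quality 30. In the combined library over TGFB1, the median log2 ratio of the 95 was -0.04, against -0.67 for the other 419. The median was -0.03 for the 87 without an lncRNA TSS and -0.58 for the 8 with one. These libraries did not pick the 95 from among the members. Both were, however, in the pooled ends that chose the members, so these values are no independent check. With pairs of mapping quality 30 alone, 82 of the 95 stayed at least 1.5-fold above the median, 91 members in all did so, and the median log2 ratio of the 95 was -0.07. The part of mapping and repeats in this pattern was not tested.

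CpG content and library ratio moved together over the 514 members (Spearman rho -0.53, Pearson r -0.46, for miR-9-LOF over Control). The points share the same libraries and their depth, and the value is a description. Members that passed the rule only through miR-9-LOF are among the points. The median log2 ratio was -0.42 in 92 members with a CpG ratio under 0.2, -0.72 in 138 members from 0.2 to 0.4, -0.84 in 122 from 0.4 to 0.6 and -1.02 in 162 above 0.6. At coding-promoter regions the same 4 medians were -0.86, -0.93, -0.98 and -1.05. CpG-rich members thus had about the ratio of coding promoters, and CpG-poor members a ratio nearer to 0. The CpG ratio also rose with fold over background. Its median went from 0.29 between 4-fold and 5-fold to 0.62 at 8-fold and above without an lncRNA TSS, and from 0.37 to 0.72 with one. CpG content and fold were not separated here.

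**Figure D3:**
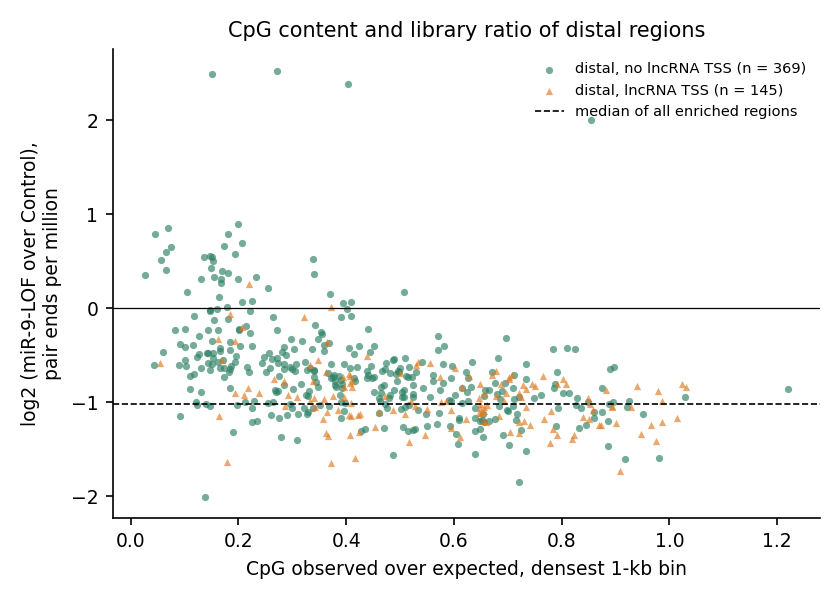
Log2 ratio of scaled ends, miR-9-LOF over Control (y axis), against the CpG ratio of the densest 1-kb bin (x axis), 1 point per member, by class; the dashed line is the median of all enriched regions (-1.02). Points with a CpG ratio above 0.6 gather around the dashed line, and most points above 0 lie at low CpG ratios. Members that passed the rule only through miR-9-LOF are included.

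In 43 of the 514 members the log2 ratio of miR-9-LOF over Control was above 0, and 41 of these had no lncRNA TSS, while 99.1% of all 8016 regions were below 0. How many of the 43 were still enriched without miR-9-LOF was not counted separately, so these numbers are no test of a difference between classes. In 4 of the 43 the log2 ratio was above 1.5, as in 5 of all 8016 regions (0.0624%), and these were picked out after their values were seen. They were chr12:3109001-3111000 (50, 28, 35 and 292 ends), chr4:81156001-81157000 (20, 20, 15 and 115), chr6:103649001-103650000 (51, 33, 57 and 270) and chr16:57391001-57392000 (32, 19, 26 and 130). Each held 62.8% to 72.1% of its ends in the miR-9-LOF library, and none of the 4 was enriched when that library was left out of the pooled ends (1.90-fold to 3.53-fold). They were thus members only through the library in which they were high, and their ratios are no support for a difference. The share of their ends at mapping quality 30 was 8.15%, 21.2%, 35.5% and 81.6%. At the other end, chr17:29749001-29750000 held 165, 149, 204 and 41 ends and was lowest in miR-9-LOF, with 100% of its bin's ends in 200 bases.

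The largest and smallest log2 ratios of TGFB1 over Control, among members with at least 100 ends in both libraries, came from a few named places. On the low side were Gm1976 (-0.84), E130102H24Rik (-0.81) and Gm7461 (-0.79) among lncRNA-linked members, and chr3:65659001-65660000 (-0.93), the chr19 region above (-0.84) and chr9:123924001-123926000 (-0.75) among the others. On the high side were Gm13727 (0.22), D030034A15Rik (0.10) and Kcnq1ot1 (0.08), and chr17:29749001-29750000 (0.35), chr17:36231001-36232000 (0.20) and chr4:32405001-32406000 in an intron of Bach2 (0.18). Kcnq1ot1, the imprinted antisense RNA of Kcnq1, held 151, 113, 75 and 100 ends, so its miR-9-LOF over Control ratio was -0.60. The Gm13727 region had 49.8% of its ends at mapping quality 30.

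The gene of the targeted miRNA was itself near members. MiR-9 is made from the genes Mir9-1, Mir9-2 and Mir9-3, which give the same mature miR-9-5p, shown from RefSeq with its seed (bases 2 to 8) in capitals.
miR-9-5p: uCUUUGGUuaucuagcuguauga

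Mir9-2 (chr13:83738814-83738885) lay inside the member chr13:83738001-83739000, within 2 kb of an lncRNA start (nearest Gm33366). It held 70, 72, 42 and 29 ends, or 2.38, 3.46, 1.56 and 0.982 scaled ends. TGFB1 stood above Control by 0.54 on the log2 scale (95% interval for counting error 0.065 to 1.01), against a median of -0.48 over all 8016 regions. The member was chosen on ends pooled over all 4 libraries, at 4.73-fold against a limit of 4-fold. Whether it was enriched without TGFB1 was not checked, so this value is no support for a difference. The log2 ratio was -1.14 (-1.69 to -0.59) for the combined library over TGFB1 and -1.26 (-1.89 to -0.64) when miR-9-LOF was set against Control, and both intervals held the medians of all regions (-0.76 and -1.02). The neighbouring member chr13:83732001-83734000 at the lncRNA C130071C03Rik held 226, 127, 89 and 89 ends and did not share the high TGFB1 value (log2 ratio -0.33). The nearest enriched region was 37.6 kb from Mir9-1, where a member held 199, 94, 77 and 95 ends, and 112 kb from Mir9-3. The 213 pooled ends of the Mir9-2 member compare with a median of 524 over the 145 lncRNA-linked members, and 77.9% of them were at mapping quality 30.

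Contacts with coding promoters were counted as pairs at 20 kb to 2 Mb whose other end lay within 2 kb of a coding TSS. The lncRNA-linked members had 6118 such pairs among 39228 (15.6%), the others 9697 among 61283 (15.8%), and coding-promoter regions 18.5% of theirs. For each pair of bins an expected number was set from the distance and from the product of the coverages of both bins. Observed over expected was 0.606 (exact 95% Poisson interval 0.591 to 0.621) at lncRNA-linked members, 0.837 (0.820 to 0.854) at the others and 0.593 (0.591 to 0.595) at coding-promoter regions. All were below 1. Pairs with any partner were also fewer than the product of the coverages gives, at 0.838 (0.830 to 0.846), 0.953 (0.946 to 0.961) and 0.816 (0.815 to 0.817) in the same order, so the shortfall was not limited to promoters. Members with an lncRNA TSS were near coding promoters on this scale and members without one lay closer to 1. The pair ends that chose the regions also enter the expected number through coverage. The classes were not matched on fold over background (medians 6.59, 4.88 and 7.91 in the same order). The part of this in the order of the classes was not tested. Copy number of the line was not corrected for.

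Flanks 5 to 10 kb from each region, with no enriched bin and no coding TSS within 2 kb, gave a reference at the same places. Their promoter share was 18.8% around lncRNA-linked members, 16.7% around the others and 23.4% around coding-promoter regions. The log2 odds ratio of members against flanks was -0.33 with an lncRNA TSS (95% interval -0.38 to -0.27, Fisher exact test p = 4.14e-30), -0.09 without (-0.13 to -0.05, p = 1.08e-05) and -0.43 at coding-promoter regions. Flanks held no enriched bin, and a pair usually needs only 1 marked end, so flank pairs may be kept through a marked partner. The part of this in the odds ratios was not tested, and the p-values are no support for fewer promoter contacts at members. Control gave the lowest value, with -0.68 at lncRNA-linked members against -0.22, -0.15 and -0.24 in TGFB1, combined and miR-9-LOF, and -0.79 against -0.42, -0.15 and -0.32 at coding-promoter regions. Per kb, lncRNA-linked members had 7.11 times the promoter pairs of their flanks and 8.91 times the other pairs, and the others had 6.16 and 6.57 times. That members had more pairs than their flanks was set by the rule, which chose them on pair ends, and only the split between promoter pairs and other pairs is compared here. With a promoter window of 5 kb the log2 odds ratio of members without an lncRNA TSS was 0.049, on the other side of 0, and that of lncRNA-linked members was -0.11.

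Among the libraries, Control had the lowest ratio in each class and the combined library the highest. At lncRNA-linked members it was 0.541 (0.520 to 0.562), 0.659 (0.625 to 0.694), 0.712 (0.665 to 0.761) and 0.648 (0.612 to 0.686). At the others it was 0.766 (0.743 to 0.790), 0.880 (0.844 to 0.917), 0.931 (0.884 to 0.980) and 0.893 (0.854 to 0.934). Coding-promoter regions gave 0.524, 0.631, 0.735 and 0.647, and the share of autosomal ends in enriched regions was 9.86%, 7.10%, 4.15% and 4.85%, whose part in these differences was not tested. Against flanks, the log2 odds ratio of members without an lncRNA TSS was -0.37 in Control and -0.13 in TGFB1, while its interval held 0 in the combined library (-0.03 to 0.17) and in miR-9-LOF (-0.10 to 0.08). The 87 members without an lncRNA TSS whose ratio of miR-9-LOF over Control was at least 1.5-fold above the median gave 1.03 (0.967 to 1.09) pooled, and the 282 others of that class 0.819 (0.801 to 0.836). Their flanks were split the same way, with 1.04 (0.993 to 1.08) and 0.899 (0.882 to 0.916). So were pairs with any partner, with 1.08 (1.06 to 1.11) and 0.939 (0.931 to 0.947), while the share of pairs at coding promoters was 14.4% for the 87 and 16.0% for the 282. Median fold over background also differed, at 4.48 for the 87 and 5.07 for the 282, and coverage enters the expected number.

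**Figure D4:**
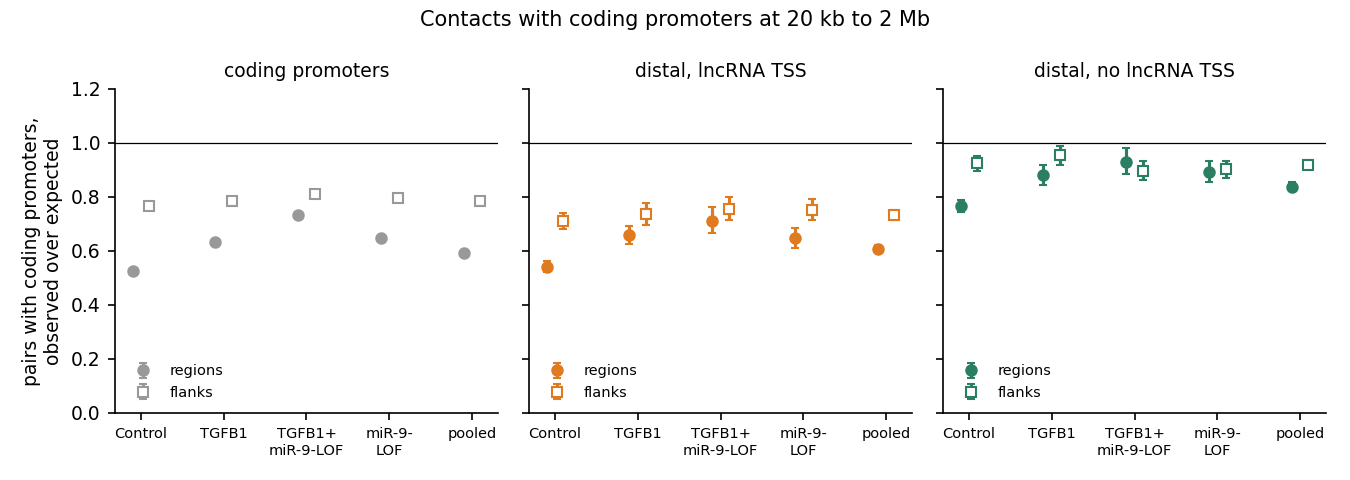
Pairs with coding promoters at 20 kb to 2 Mb, observed over expected (y axis), by library and pooled; filled points are the regions, open squares their flanks, and bars are exact 95% Poisson intervals. Points of coding-promoter regions and lncRNA-linked members lie below those of members without an lncRNA TSS in every library, and Control is lowest for the regions of each class.

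The ratio came closer to 1 with distance. At lncRNA-linked members it was 0.521 from 20 to 100 kb, 0.624 from 100 to 500 kb and 0.889 from 500 to 2000 kb, and at the others 0.706, 0.833 and 0.967. Pooled over libraries, partners that were marked themselves gave the lower values. At promoters with an enriched region the ratio was 0.565 for lncRNA-linked members and 0.785 for the others, and at promoters without one it was 0.665 and 0.921. In the combined library the order was the other way for lncRNA-linked members, with 0.763 (0.696 to 0.834) at promoters with a region and 0.658 (0.594 to 0.727) at those without. Pooled flanks also had the other order. They gave 0.770 at promoters with a region and 0.675 without one around lncRNA-linked members, and 0.961 and 0.856 around the others. Pairs of members with one another were few, with 301 pairs from lncRNA-linked members (1.14, 1.01 to 1.27) and 509 from the others (interval 1.19 to 1.42), and the libraries differed. In Control, which held more of these pairs than any other library, the ratio was 0.928 (0.777 to 1.10) and 0.982 (0.850 to 1.13), with no excess. In TGFB1 it was 1.57 (1.25 to 1.94) and 1.54 (1.28 to 1.83), in the combined library 1.49 (1.06 to 2.03) and 1.56 (1.22 to 1.97), and in miR-9-LOF 1.07 (0.776 to 1.44) and 1.80 (1.48 to 2.16). The pooled flanks gave 1.32 (1.17 to 1.49) around lncRNA-linked members and an interval of 1.39 to 1.63 around the others. By library the flanks were 1.24, 1.52, 1.08 and 1.47 around the former and 1.53, 1.46, 1.53 and 1.47 around the latter, above the members in Control in both classes and on either side of them elsewhere, and coding-promoter regions paired with members at 0.617 (0.601 to 0.634). There were 37 members (7.20%) with another member within 20 kb, and the densest run held 5 members in 24 kb around Gm26740 on chromosome 10.

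Single members varied around these sums. Among all enriched regions with at least 20 promoter pairs, the interval lay above 1 in 9.91% and below 1 in 54.6%. Of 89 lncRNA-linked members with that many pairs, it lay above 1 in 16 (18.0%) and below in 41 (46.1%), and of 170 others above in 25 (14.7%) and below in 51 (30%). The numbers for coding-promoter regions were 9.46% and 55.5%. The limit of 20 was set on the observed pairs, which also enter the ratio. It kept 89 of 145 lncRNA-linked members, 170 of 369 others and 5695 of 7322 coding-promoter regions. These shares are therefore no test of a difference between classes. The median count of promoter pairs was 26 and 18 in the 2 groups of members, and 1 and 19 members had none.

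The highest lower limits among lncRNA-linked members came from 5 places. Gm36445 (chr13:65240001-65242000), in a cluster of zinc finger genes, had 108 promoter pairs against 35.9 expected (3.01, 2.47 to 3.63), 49 of them with Zfp369 at 37.8 kb. BC002059 (chr17:16951001-16952000) had 23 pairs (3.65, 2.31 to 5.47), with 4 at Riok2 and 3 at Chd1, and 6.33 from 9 pairs when only distances of 20 to 500 kb were used. Mannr (chr3:29891001-29892000) had 23 pairs (3.01, 1.91 to 4.51), 20 of them with Mecom, a zinc finger transcription factor gene 106 kb away. 1700028E10Rik (chr5:151368001-151369000) had 31 pairs (2.82, 1.91 to 4.00), 16 of them with Stard13, which encodes a RhoGAP protein, at 135 kb.

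By the share of pairs with a single gene, 8430419K02Rik was the most concentrated of these, with Meis1 as its partner. The number of other coding promoters in range was not taken into account. The region (chr11:18875001-18878000) had 66 promoter pairs (2.03, 1.57 to 2.58), and 61 of them were with Meis1, a homeobox gene of developing mesenchyme, at 142 kb. With pairs from 20 to 500 kb the ratio was 3.29. By library these were 28, 20, 8 and 5 pairs, while the region itself held 492, 263, 187 and 224 ends. All 4 libraries held pairs with Meis1, most of them in Control and TGFB1. Of the ends of this region, 71.2% belonged to pairs of mapping quality 30.

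Members without an lncRNA TSS gave 5 further places. The region chr13:67108001-67109000, within a zinc finger gene cluster, had 39 pairs (3.65, 2.60 to 5.00), spread over Zfp708 (6), Zfp457 (5) and others. Neighbouring tRNA-linked members on chromosome 14, chr14:51063001-51066000 and chr14:51083001-51084000, had 108 pairs (2.03, 1.67 to 2.45) and 57 pairs (2.55, 1.93 to 3.30), the first with Rnase4 and Ang, which share a promoter region, at 26.6 kb (25 and 22 pairs). Of the ends of these tRNA-linked members, 75.1% and 54.9% were at mapping quality 30. The region chr1:106408001-106410000 had 41 pairs (2.22, 1.59 to 3.01), 14 with Phlpp1, which encodes a phosphatase of AKT, at 237 kb and 8 with Bcl2. A region 30.5 kb from Mex3c had 20 pairs (2.68, 1.64 to 4.14), 16 of them with Mex3c.

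**Figure D5:**
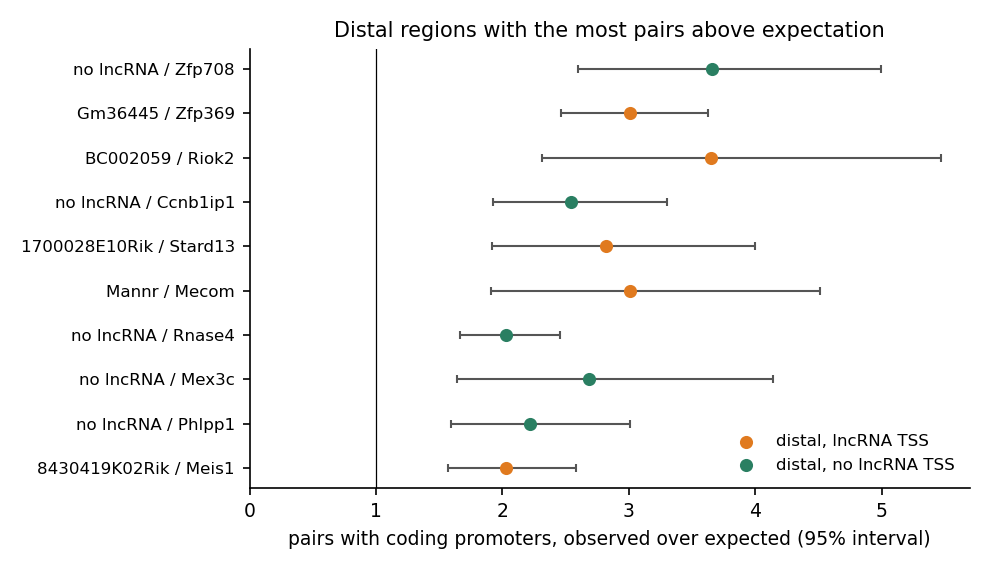
Observed over expected pairs with coding promoters (x axis) for the 10 members, 5 per class, with the highest lower limits among those with at least 20 such pairs; bars are exact 95% Poisson intervals, and each is named by its lncRNA and by the coding gene with most pairs. All intervals lie above 1 because the members were chosen by their lower limit, and the ratios run from 2.03 to 3.65.

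Many pairs did not mean many above expectation. The Pvt1 member had 73 promoter pairs, 72 of them with Myc at 51.1 kb (29, 21, 10 and 12 by library), but 264 were expected from the coverage of both ends and the distance (0.277, 0.217 to 0.348). The Gm53 member had 237 pairs (0.279, 0.245 to 0.317), led by Hoxb7 with 26. At 2810410L24Rik 65 of 152 pairs were with Bahcc1 (0.320 over all 152), and Neat1 and Malat1 had 125 and 93 pairs (0.318 and 0.225). These 5 members were below 1, as coding-promoter regions were. Pooled pairs with bins of coding-promoter regions gave 0.521 at lncRNA-linked members, 0.722 at the others and 0.417 at coding-promoter regions. Pairs between marked places thus lay below 1 in general, and a ratio below 1 does not by itself mark a contact as rare.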

How the data were processed

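H3K4me3 HiChIP-seq was performed on MLg cells, 1 library per condition. The authors aligned read pairs to mm10 with HiC-Pro at default settings (version not given in the sources used here), removed duplicates, assigned ends to MboI fragments and deposited the valid pairs, 1 per line. The deposited values used are the positions of both ends and the mapping quality score that the aligner gave each end. Here ends were counted in 1-kb bins of 19 autosomes, and regions were called as described. Coding and lncRNA starts (TEC genes included) came from every transcript of GENCODE M21, other starts and the miRNA from RefSeq, and sequence from GRCm38.p6.

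Region log2 ratios used 0.5 added ends. Expected pairs were the product of both bins' coverages times the mean at that distance in the library, smoothed over 10 kb on either side. Intervals were 95% Wilson (shares), exact Poisson (pairs) or Wald on the log scale (ratios, odds ratios). Tests were two-sided Fisher exact tests on ends or pairs, unadjusted. Those on ends compare libraries only. Those on pairs compare regions with their flanks over the pooled libraries and treat pairs of the same region as independent. A pair with both ends in a region counted as 2 ends, so intervals of ends may be too narrow. Scripts ran in Python 3.11.15 with scipy 1.17.1 for tests, numpy 2.4.6 and pandas 2.3.3 for counting, and matplotlib 3.10.9 for plots. The steps were tested on simulated data, in which pairs followed the same product of coverages.

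The members and lists were chosen with earlier results of these data known. Regions are named by rule: in each group the 5 with most ends per kb, the 5 with the highest lower limit of promoter pairs (at least 20 pairs), the 3 highest and 3 lowest in TGFB1 over Control (at least 100 ends in both libraries), listed lncRNAs, and regions within 5 kb of a miR-9 gene. Alternatives that drop TEC genes, count RefSeq mRNA starts as coding, leave out the strongest or poorly mapped regions, or rescale expected pairs were added after seeing the data.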

Additional observations from a re-analysis of the deposited data

How the results depend on the processing

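No paired analysis was possible because each condition had 1 library, and for the same reason no replicate could be left out. The number of regions depended on the definition, with 197 at 6-fold, 949 when called from Control alone and 1003 when only the first TSS of each coding gene counted, and the share at lncRNA starts was then 43.1%, 20.2% and 22.0%, or 33.3% with lncRNA starts within 5 kb. At 6-fold the log2 difference between members and coding-promoter regions was 0.03 for TGFB1 over Control and 0.11 for miR-9-LOF over Control, in the same direction but smaller by over 1.5-fold, and 0.25 for the combined library over TGFB1. Observed over expected pairs with promoters stayed below 1 in all alternatives. For lncRNA-linked regions it was 0.589 at 10 kb from coding TSS, 0.635 for pairs from 50 kb to 2 Mb, 0.578 from 20 to 500 kb, 0.673 with a 5-kb promoter window and 0.723 with expected pairs rescaled to match any partner (chosen after seeing the data). For the others it was 0.793 at 6-fold, 0.815 without Control in the call, 0.856, 0.811, 0.891 and 0.878 under the last 4 of those settings. The log2 odds ratio of the latter regions against their flanks turned from -0.09 to 0.049 with the 5-kb window, and was -0.28 at 6-fold, -0.14 at 10 kb from coding TSS and -0.05 against flanks 10 to 20 kb away. That of lncRNA-linked regions went from -0.33 to -0.11 with the 5-kb window and otherwise lay between -0.40 and -0.26. The cause of these shifts was not tested.

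Among single regions, restricting pairs to mapping quality 30 moved miR-9-LOF over Control in 5: chr9:35305001-35306000 to -0.77, chr6:3201001-3202000 to -1.30, chr14:51083001-51084000 to -1.12, chr17:36231001-36232000 to -1.22 and chr19:61266001-61267000 to -1.65. For the region 30.5 kb from Mex3c, a minimum of 50 kb leaves out its pairs with Mex3c, and the 4 pairs left, with other promoters, gave 1.58 with an interval that held 1.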
